A study of Mus musculus with 88 samples.

Results

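Oligodendrocytes (OLGs), the glia that wrap axons of the CNS in myelin, are made from OLG precursor cells (OPCs) under the control of a small set of transcription factors. The genes described here are 8 of these: the SoxE factors Sox10 and Sox8, the basic helix-loop-helix factors Olig1 and Olig2, the homeodomain factors Nkx2-2 and Nkx6-2, the membrane-tethered factor Myrf and the zinc finger protein Zfp488. They were chosen by name, by matching these symbols to the Ensembl gene ids of the GRCm38 annotation, and all 8 were found in each of 3 expression tables, which together listed 21767 genes.

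RNA was sequenced from the medial prefrontal cortex (mPFC, 32 mice), the bed nucleus of the stria terminalis (BNST, 28 mice) and the ventral hippocampus (vHPC, 28 mice) of male mice aged 8 weeks, of the inbred strains C57BL/6Crl (B6) and DBA/2Crl (D2), 6 to 8 days after the last session of chronic social defeat stress (CSDS). Defeated mice had been confronted by an aggressive mouse of another strain and were called resilient or susceptible from a later social interaction test, scored against controls of their own strain. Controls lived beside another control mouse without physical contact. The mPFC held 6 control, 6 resilient and 6 susceptible B6 mice with 6 control and 8 susceptible D2 mice. The BNST held 5 mice in each B6 group, and in D2 mice 5 were controls, 3 were resilient and 5 susceptible. The vHPC held 6 control, 8 resilient and 3 susceptible B6 mice with 6 control and 5 susceptible D2 mice. No resilient D2 mouse was analysed in the mPFC or the vHPC. Each library came from 1 mouse, and 7 mice were sampled in the mPFC as well as in the vHPC. The phenotype was assigned from behaviour, so that resilient and susceptible mice of a strain had received the same treatment.

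In the developing CNS, Olig2 commits progenitors to the OLG lineage and switches on Sox10, which then stays on in OPCs and in mature OLGs. Nkx2-2, Olig1 and Zfp488, a corepressor that works with Olig2, take part when OPCs leave the precursor state. Sox10, with its relative Sox8, and Myrf, itself a target of Sox10, then drive the genes of the myelin sheath, and Nkx6-2 regulates the order of myelin at the axon in mature cells. In whole tissue, fewer OLGs and less RNA per OLG cannot be told apart.

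Levels are given as log2 CPM, the count of a gene scaled to the total count of its library (CPM). The BNST table held raw counts, between 11825757 and 25793910 per library, and the mPFC and vHPC tables held values that the authors had already filtered, put on the log2 CPM scale and adjusted for library batch, so that the tables themselves hold no counts for these regions. The 3 regions were prepared with different kits and normalised separately, and no test was made between them. In every table the neuron, astrocyte, microglia, endothelial, precursor and myelin lists were present in full, whereas of the choroid plexus genes 2 of 3 were listed in the mPFC and the BNST, and of the Schwann cell genes 1 of 4 in the mPFC and 2 of 4 in the others.

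Windows upstream of the transcription start are shown for 3 members because they moved in different directions between the strains in the vHPC, Olig2 upwards in D2 mice and Nkx6-2 and Zfp488 downwards. Each holds the 250 bases before the RefSeq start on the strand of the gene in GRCm38.p6, that is chr16:91225300-91225549 (plus strand) for Olig2, chr7:139582798-139583047 (minus strand) for Nkx6-2 and chr14:33978765-33979014 (minus strand) for Zfp488. Capitals mark a match to 1 of the short motifs searched.
Olig2: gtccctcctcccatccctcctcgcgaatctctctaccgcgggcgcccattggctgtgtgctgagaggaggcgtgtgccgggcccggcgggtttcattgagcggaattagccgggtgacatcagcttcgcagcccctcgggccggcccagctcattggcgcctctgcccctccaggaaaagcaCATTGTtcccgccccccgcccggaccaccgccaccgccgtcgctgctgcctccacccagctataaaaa
Nkx6-2: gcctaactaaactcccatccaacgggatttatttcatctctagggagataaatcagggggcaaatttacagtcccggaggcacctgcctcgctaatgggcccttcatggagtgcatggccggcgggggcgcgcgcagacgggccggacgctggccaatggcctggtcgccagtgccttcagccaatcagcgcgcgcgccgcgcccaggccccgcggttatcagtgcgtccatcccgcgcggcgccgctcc
Zfp488: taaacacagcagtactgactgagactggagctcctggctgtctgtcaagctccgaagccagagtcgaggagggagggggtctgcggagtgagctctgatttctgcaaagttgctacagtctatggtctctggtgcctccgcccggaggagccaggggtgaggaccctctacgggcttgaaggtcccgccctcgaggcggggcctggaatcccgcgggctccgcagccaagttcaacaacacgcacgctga
Of the 8 members, 5 had an entry in the table of RefSeq promoters (Olig2, Nkx6-2, Nkx2-2, Sox8 and Zfp488). The motifs, searched on both strands, were the E box CAGCTG bound by OLIG proteins, the SOX motifs ACAAAG and ACAATG, and the MYRF motifs CTGGCAC and CTGGTAC. The only match in the 5 windows was an ACAATG on the opposite strand, and it overlapped no other motif. Its first base lay 68 bases before the RefSeq start of Olig2. In the GENCODE annotation Olig2 begins farther upstream, at chr16:91225457, so that the match lies inside the annotated gene. The window of Nkx2-2 (chr2:147186403-147186652) also lies inside its annotated gene (chr2:147177546-147194243). Among all 32851 windows of this length, 4271 held CAGCTG, 5408 ACAAAG, 3512 ACAATG, 1376 CTGGCAC and 601 CTGGTAC. The 5 windows were between 56.4% and 66.8% G and C, above the median of 52.4% over all windows.

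In the genome, Olig1 (chr16:91269772-91271933) and Olig2 (chr16:91225457-91228677) lie next to each other on the plus strand of chromosome 16. Sox10 is at chr15:79154908-79165240, Sox8 at chr17:25565892-25570686, Myrf at chr19:10208272-10240748, Nkx6-2 at chr7:139579376-139582797, Nkx2-2 at chr2:147177546-147194243 and Zfp488 at chr14:33967070-33978764, all on the minus strand. In 4 of them exons were overlapped by exons of a gene on the other strand: 157 bases of Olig1 by Gm15966, 246 bases of Nkx6-2 by Inpp5a, 278 bases of Nkx2-2 by Nkx2-2os and 329 bases of Sox8 by 2810468N07Rik. Whether reads were counted by strand is not given in the sources used here, and the values of these 4 genes are uncertain to that extent.

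All members were detected in every region, at levels that differed by gene and between the tables of the regions. In the mPFC the mean log2 CPM over all 32 libraries ran from -0.26 ± 0.31 (SD, n = 32) for Nkx2-2 to 4.92 ± 0.17 (SD, n = 32) for Sox8. In the vHPC the range was from 0.45 ± 0.62 (SD, n = 28) for Nkx2-2 to 5.302 ± 0.19 (SD, n = 28) for Olig1. In the BNST it was from 3.35 ± 0.53 (SD, n = 28) for Zfp488 to 7.43 ± 0.75 (SD, n = 28) for Myrf. Nkx2-2, which is a factor of OPCs about to differentiate, was thus among the least expressed genes of the mPFC table, whereas in the BNST its mean was above that of 53.5% of genes.

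Per length, as log2 CPM per kilobase of exon, Sox8 (3.28), Olig1 (2.45) and Olig2 (2.33) were the most abundant members in the mPFC, followed by Sox10 (1.35). In the vHPC the order began with Olig1, Sox8 (3.31) and Olig2 (2.96), again followed by Sox10 (2.16). The BNST order began with Olig1 (5.302), Sox10 (5.04) and Sox8 (5.03), which lay within 1 SD of each other, followed by Olig2 (4.35) and Myrf (4.33). Zfp488 or Nkx2-2 was at the bottom in every region (Zfp488 at 1.24 in the BNST, Nkx2-2 at -1.79 in the mPFC and -1.07 in the vHPC, all per kilobase). Within the BNST table Sox10 therefore ranked high, above 95.3% of all genes per length, against 33.7% in the mPFC and 51.3% in the vHPC. The tables differ in kit, scaling and genes kept. Region and preparation therefore cannot be told apart in these ranks, or in those of Nkx2-2 above.

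The first comparison asked how the members differed between the strains in undefeated mice. In the mPFC, 3 of 8 members were lower in D2 controls than in B6 controls, beside 27.8% of all 18946 genes called in either direction (limma, Benjamini-Hochberg adjusted p under 0.05). Sox10 showed the largest difference of the 8. Its log2 CPM in B6 controls ran from 3.23 through a median of 3.54 to 3.85 and in D2 controls from 2.129 through 2.39 to 2.68. Every D2 control lay below every B6 control, and the difference was -1.16 ± 0.12 on the log2 scale, or 0.448 of the B6 level (limma, adjusted p = 1.15e-08). Groups that did not overlap were found for 11.7% of all genes in this comparison.

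Zfp488 and Nkx6-2 were the other members called in the mPFC. Zfp488 ran from 1.22 through 1.52 to 1.68 log2 CPM in B6 controls and from 0.40 through 0.79 to 0.88 in D2 controls, again without overlap, a difference of -0.74 ± 0.15 (limma, adjusted p = 0.000293). Nkx6-2 ran from 0.62 through 1.21 to 1.71 log2 CPM in B6 and from -0.38 through 0.57 to 0.96 in D2 controls, which overlapped, with a difference of -0.85 ± 0.24 (limma, adjusted p = 0.00867). The remaining 5 were not called. Olig2, the lineage-specifying factor, differed by -0.24 ± 0.11 (limma, adjusted p = 0.12), Myrf by -0.23 ± 0.16, Olig1 by -0.17 ± 0.09, Sox8 by -0.09 ± 0.09 and Nkx2-2 by -0.08 ± 0.18. The strain difference of Sox10, Zfp488 and Nkx6-2 passed the threshold with any 1 of the 12 control mice left out (Sox10 between -1.23 and -1.10). Nkx6-2 and Zfp488 were low in this region, with means over all 32 libraries of 0.81 and 0.99 log2 CPM, above 14.9% and 16.8% of genes.

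**Figure D1:**
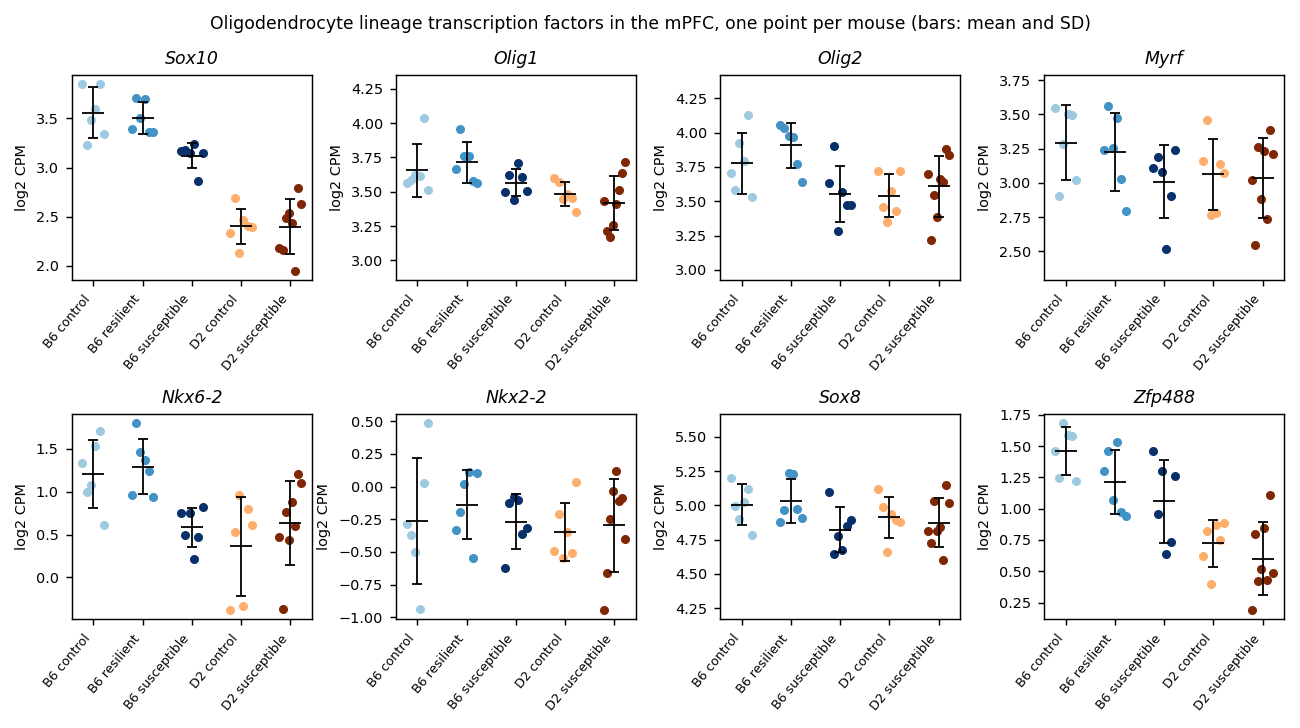
Level of each member in the mPFC (y axis, log2 CPM) by strain and phenotype (x axis), 1 point per mouse, with bars for the mean and SD. Sox10 in D2 controls (2.129 to 2.68) lies below Sox10 in B6 controls (3.23 to 3.85), while Sox8, Olig1 and Olig2 overlap between the strains.

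The members differed unequally between the strains. Within each mouse, the log2 value of another member was also subtracted from that of Sox10. A scaling factor common to all genes of a library cannot alter this difference. The batch adjustment of the mPFC and vHPC values, made gene by gene, can alter it. The ratio of Sox10 to Olig2 was -0.22 ± 0.20 (SD, n = 6) in B6 controls and -1.14 ± 0.23 (SD, n = 6) in D2 controls of the mPFC (exact permutation test, two-sided, p = 0.00216, the smallest this design allows, adjusted p = 0.0286 over 119 such ratios). The ratios of Sox10 to Olig1, Myrf and Sox8 differed by -0.99, -0.93 and -1.07 with the same p. For Zfp488 the ratio differed by -0.42 (exact permutation test, adjusted p = 0.0468). That of Sox10 to Nkx6-2 differed by -0.31 and was not called (exact permutation test, adjusted p = 0.574). That of Sox10 to Nkx2-2 differed by -1.08 and was not called either (exact permutation test, adjusted p = 0.0552). This measure was chosen after the values had been seen, with Sox10, the member that differed most in the mPFC, in every ratio. The ratio of Sox10 to a member that differed little mainly restates the difference of Sox10 and is no separate support. Ratios of Sox10 to genes outside the list were not computed.

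In the vHPC, 6 of 8 members differed between D2 and B6 controls, beside 59.3% of all 19559 genes. Sox10, Zfp488, Nkx6-2 and Myrf were lower in D2 mice, and Olig2 and Nkx2-2 were higher. Sox10 ran from 4.02 through 4.14 to 4.33 log2 CPM in B6 controls and from 3.23 through 3.403 to 3.85 in D2 controls. The strains did not overlap (36.7% of all genes did not), with a difference of -0.69 ± 0.14 (limma, adjusted p = 0.000201). Zfp488 also did not overlap and differed by -0.52 ± 0.11 (limma, adjusted p = 0.000165).

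Olig2 moved the other way. Its log2 CPM ran from 3.82 through 4.01 to 4.04 in B6 controls and from 4.302 through 4.48 to 4.57 in D2 controls, a difference of 0.49 ± 0.07 without overlap (limma, adjusted p = 4.29e-07). Nkx2-2 was higher in D2 controls by 0.69 ± 0.28 (limma, adjusted p = 0.0372), but its values of -0.35 to 0.47 in B6 and 0.30 to 1.28 in D2 mice overlapped and lay near 1 CPM. Nkx6-2 differed by -0.49 ± 0.13 (limma, adjusted p = 0.00246) and Myrf by -0.46 ± 0.18 (limma, adjusted p = 0.0277). Olig1 (-0.01 ± 0.11) and Sox8 (-0.07 ± 0.11) were not called. Nkx2-2 lost its call with any 1 of 8 of the 12 control mice left out, and Myrf with any 1 of 4.

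Within each vHPC mouse, the ratio of Sox10 to Olig2 was 0.19 ± 0.18 (SD, n = 6) in B6 and -0.99 ± 0.19 (SD, n = 6) in D2 controls (exact permutation test, two-sided, adjusted p = 0.0286). The ratios of Sox10 to Olig1, Sox8 and Nkx2-2 were also lower in D2 controls with that p. In neither region did the strains differ detectably in the ratio of Sox10 to Nkx6-2 (vHPC, difference -0.19, exact permutation test, adjusted p = 0.28). The vHPC ratios of Sox10 to Myrf (-0.22, exact permutation test, adjusted p = 0.213) and to Zfp488 (-0.17, exact permutation test, adjusted p = 0.139) were not called either.

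No vHPC library set held controls of both strains. With library set as a term in the model, which links the strains only through sets of defeated mice, the differences were -1.07 for Sox10, -0.93 for Zfp488, -0.67 for Nkx6-2, -0.76 for Myrf, 0.18 for Olig2 and 1.33 for Nkx2-2, and no member passed the threshold (limma, adjusted p = 0.113 to 0.725). With sequencing set as the term, all 6 calls remained. In the mPFC, library sets were shared between the strains, and the same 3 members were called with the library set in the model.

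In the BNST, no member differed between the control groups, beside 2.51% of all 17515 genes (edgeR quasi-likelihood test, with 0 members and 13.4% of all genes at an unadjusted p under 0.05, and 0 members called by DESeq2). Sox10 was at 6.10, 5.91, 7.07, 7.06 and 7.169 log2 CPM in the B6 controls and at 6.32, 3.94, 7.23, 7.90 and 7.25 in the D2 controls. The D2 control with 3.94, replicate 2, stood apart from the other mice. It also held the lowest Myrf (5.22), Nkx6-2 (1.48), Sox8 (4.77), Olig1 (4.42) and Nkx2-2 (2.69) of the region. The fitted difference was 0.24 ± 0.40 for Sox10 with this mouse and 0.52 without it (edgeR, adjusted p = 0.821 and 0.507), and because the fit works on counts its sign differs here from that of the mean log2 CPM, 6.53 in D2 and 6.66 in B6 controls.

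In that D2 control the 8 members summed to 160.1 CPM, against 444.5 to 1142 CPM in the other 4 D2 controls, whereas its 18 myelin genes (5633 CPM) lay within the 2521 to 7726 CPM of the others and its OPC genes (1606 CPM) above their 855.3 to 1142 CPM. Its total count, 14838143, was within the range of the group. The genes of thalamic neurons summed to 96.15 to 1432 CPM in D2 controls and to 109.9 to 295.6 CPM in B6 controls of the BNST, and their part in the BNST comparisons was not tested.

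**Figure D2:**
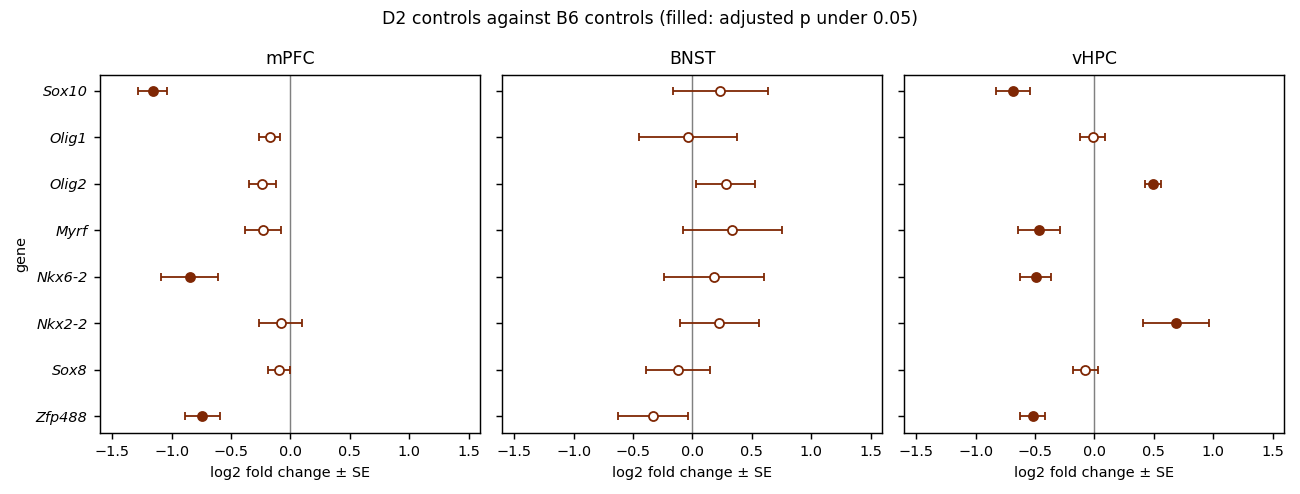
Difference of D2 controls from B6 controls for each member (log2 fold change with its SE, x axis) in the 3 regions. Sox10 lies at -1.16 in the mPFC and -0.69 in the vHPC, both called, and at 0.24 in the BNST, not called, while Olig2 lies at 0.49 in the vHPC.

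Reads of both strains had been aligned to GRCm38, which is C57BL/6J sequence, and a strain difference can hold a part due to mapping, which was not tested. Other cell types differed between the strains too. In the mPFC, 17 of 18 myelin genes were lower in D2 controls with a median of -0.80 and the 5 striatal neuron genes had a median of -1.37, of which 1 was called. Their sum ran from 84.78 to 231.2 CPM in B6 and from 67.07 to 160.5 CPM in D2 controls, and its part in the result was not tested. In the vHPC, all 18 myelin genes were lower in D2 controls (median -1.26), as were the 3 choroid plexus genes (median -2.37) and the 5 endothelial genes (median -0.74).

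The next comparison asked whether the members differed after CSDS. In the mPFC of B6 mice, none of the 8 was called in susceptible mice against controls, beside 2.22% of all genes (limma, with 3 members at an unadjusted p under 0.05, as were 18.2% of all genes). All 8 estimates were below 0, with a median of -0.25 against 0.00 for all genes tested. Sox10 lay closest to the threshold. It ran from 3.23 through 3.54 to 3.85 log2 CPM in controls and from 2.86 through 3.16 to 3.24 in susceptible mice, a difference of -0.44 ± 0.12 (limma, adjusted p = 0.053). The groups overlapped by a single control, and the estimate was called with any 1 of 3 of the 12 mice left out and not with the other 9 (adjusted p = 0.031 to 0.138).

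Zfp488, the Olig2 corepressor, differed by -0.41 ± 0.15 (limma, adjusted p = 0.13) and Nkx6-2 by -0.63 ± 0.24 (limma, adjusted p = 0.153). For Olig2 the difference was -0.22 ± 0.11, for Myrf -0.29 ± 0.16, for Sox8 -0.18 ± 0.09, for Olig1 -0.09 ± 0.09 and for Nkx2-2 -0.01 ± 0.18. Of the 18 myelin genes downstream of these factors, 13 were called lower in the same mice (median -0.69), Opalin by -0.97 ± 0.27 (limma, adjusted p = 0.0491) and Mobp by -0.89 ± 0.21 (limma, adjusted p = 0.0269). Of 13 OPC and committed precursor genes 1 was lower, Enpp6, a marker of newly forming OLGs (-0.65 ± 0.17, limma, adjusted p = 0.0448), and of 13 inhibitors of maturation 1, Tfeb (-0.38 ± 0.10, limma, adjusted p = 0.0384). None of 15 other differentiation regulators tested was called. The 5 striatal neuron genes had a median of -1.03 in this comparison with 0 called, and their sum ran from 49.0 to 121.2 CPM in susceptible mice and from 84.78 to 231.2 CPM in controls. The part of striatal tissue in the result was not tested.

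Against resilient B6 mice, which had also been defeated, susceptible mice again had 8 estimates below 0 and 0 calls, beside 2.02% of all genes (limma, with 4 members and 19.6% of all genes at an unadjusted p under 0.05). Sox10 ran from 3.36 through 3.45 to 3.71 log2 CPM in resilient and from 2.86 through 3.16 to 3.24 in susceptible mice, with no overlap and a difference of -0.38 ± 0.12 (limma, adjusted p = 0.0815). Nkx6-2 ran from 0.94 through 1.304 to 1.801 in resilient and from 0.22 through 0.62 to 0.82 in susceptible mice, also with no overlap (-0.71 ± 0.24, limma, adjusted p = 0.101). Such separation was found for 1.68% of all genes. Olig2 differed by -0.35 ± 0.11 (limma, adjusted p = 0.0817) with overlapping groups. The ratio of Sox10 to Olig1 within a mouse averaged -0.44 ± 0.16 in the 6 susceptible and -0.21 ± 0.07 in the 6 resilient mice (mean ± SD, exact permutation test, two-sided, adjusted p = 0.0286). The other 6 ratios were not called in this comparison (exact permutation test, adjusted p = 0.213 to 0.901). The susceptible B6 mice of the mPFC differed from the others in the prefix of their mouse ID as well, which 5 of the 6 shared with 1 control and with 0 resilient mice. With the prefix in the model Sox10 differed by -0.23 from controls (limma, adjusted p = 0.826) and by -0.19 from resilient mice (limma, adjusted p = 1).

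No member of the mPFC was called in resilient B6 mice against controls, beside 0% of all genes (limma, with 0 members and 3.86% of all genes at an unadjusted p under 0.05). Sox10 differed by -0.05 ± 0.12, Olig2 by 0.13 ± 0.11 and Zfp488 by -0.25 ± 0.15. Nor was any member called in susceptible D2 mice (0% of all genes, with 0 members and 3.87% of all genes at an unadjusted p under 0.05, limma). The level of Sox10 was 2.40 ± 0.28 log2 CPM (SD, n = 8) after CSDS and 2.40 ± 0.18 (SD, n = 6) in control D2 mice. All 14 D2 mice lay below every B6 mouse of this region, with the highest D2 mouse at 2.79 and the lowest B6 mouse at 2.86. The share of all genes separated in this way was not computed. The response to CSDS was compared between the strains by an interaction term, and no member was called (limma, 0% of all genes). The terms were 0.43 ± 0.17 for Sox10 (limma, adjusted p = 0.459) and 0.90 ± 0.33 for Nkx6-2 (limma, adjusted p = 0.445). These were the 2 members at an unadjusted p under 0.05, as were 9.32% of all genes.

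**Figure D3:**
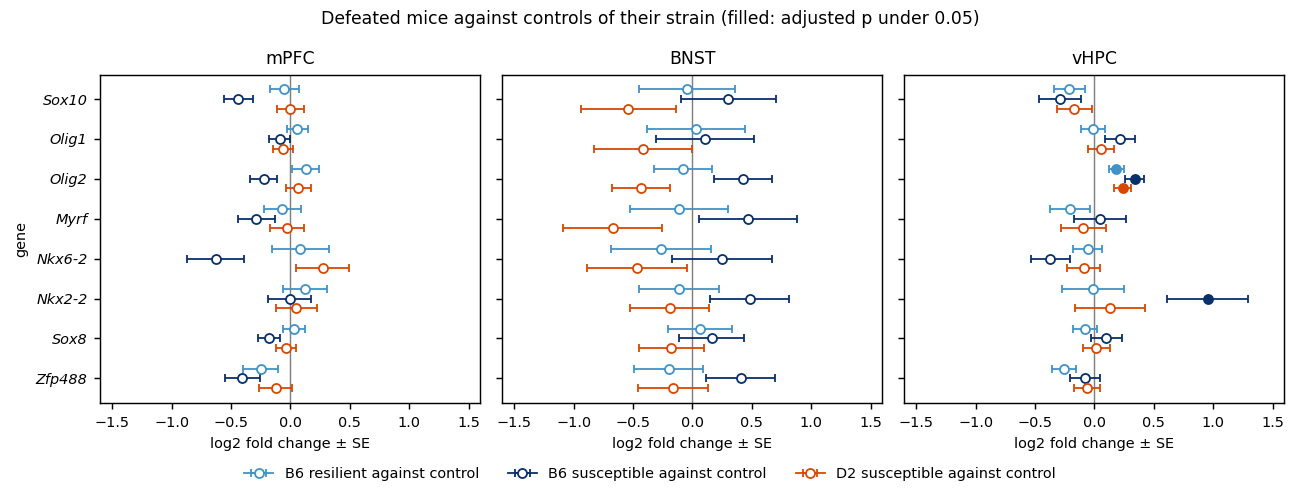
Difference of defeated mice from controls of their strain for each member (log2 fold change with its SE, x axis) in the 3 regions, with filled points where the adjusted p was under 0.05. In the vHPC the 3 filled Olig2 points lie at 0.19, 0.34 and 0.24, and in the mPFC no point is filled, with Sox10 of susceptible B6 mice at -0.44.

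In the vHPC, Olig2 was higher in each defeated group. It ran from 3.82 through 4.01 to 4.04 log2 CPM in B6 controls, from 4.01 through 4.166 to 4.33 in resilient B6 mice, and was 4.10, 4.48 and 4.35 in the 3 susceptible B6 mice. Resilient mice overlapped with controls and susceptible mice did not. The difference was 0.19 ± 0.06 for resilient (limma, adjusted p = 0.0493) and 0.34 ± 0.08 for susceptible mice (limma, adjusted p = 0.00166). In D2 mice the control values of 4.302 through 4.48 to 4.57 were exceeded by all 5 susceptible mice, at 4.72, 4.58, 4.71, 4.67 and 4.82 (0.24 ± 0.07, limma, adjusted p = 0.0457).

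These calls of Olig2 stood beside 10.84% of all genes called in resilient B6, 40.6% in susceptible B6 and 4.28% in susceptible D2 mice. Groups that did not overlap made up 37.7% of all genes in susceptible B6 and 4.98% in susceptible D2 mice. The call in resilient mice held with any 1 of 4 of the 14 mice left out, that in susceptible B6 mice with each of the 9, and that in susceptible D2 mice with any 1 of 2 of the 11. No library set of the vHPC held both control and defeated B6 mice. Of the 6 sets that held control or susceptible D2 mice, 1 held both. With library set in the model Olig2 differed by -0.15, 0.05 and 0.48 in the 3 comparisons, none of them called (limma, adjusted p = 1, 0.937 and 0.926), so that the library set and CSDS cannot be told apart in B6 mice of this region.

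**Figure D4:**
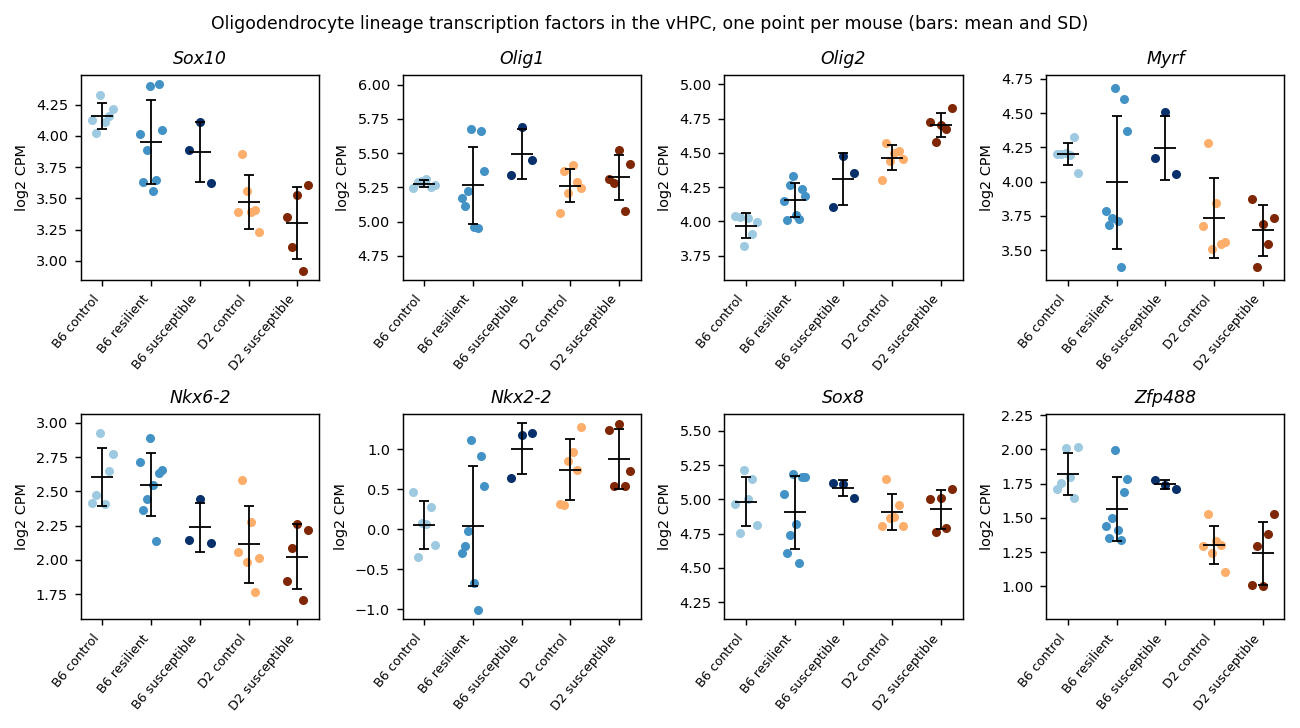
Level of each member in the vHPC (y axis, log2 CPM) by strain and phenotype (x axis), 1 point per mouse, with bars for the mean and SD. Olig2 is lowest in B6 controls (3.82 to 4.04) and highest in susceptible D2 mice (4.58 to 4.82), whereas Sox10 is highest in B6 controls by mean (4.16) and lowest in susceptible D2 mice (3.303).

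Nkx2-2 was the other member called in defeated mice of the vHPC. In susceptible B6 mice it was at 0.64, 1.184 and 1.201 log2 CPM, above all 6 controls (-0.35 through 0.07 to 0.47), a difference of 0.95 ± 0.34 (limma, adjusted p = 0.0293). Resilient B6 mice varied more, from -1.01 through -0.12 to 1.11, and their difference from susceptible mice was 0.96 ± 0.33 (limma, adjusted p = 0.0327), the only member called in that comparison, where 27.6% of all genes were. Leaving out 1 mouse took away the call in 4 of 9 cases against controls and in 6 of 11 against resilient mice. With library set in the model neither call remained (1.697 against controls, limma, adjusted p = 0.496, and 0.93 against resilient mice, adjusted p = 0.264), and with sequencing set the call against resilient mice was lost (0.875, limma, adjusted p = 0.0847). Library set and CSDS cannot be told apart for the comparison of Nkx2-2 with controls either. In susceptible D2 mice Nkx2-2 differed by 0.13 ± 0.29 and was not called.

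Sox10 in the vHPC ran from 4.02 to 4.33 log2 CPM in B6 controls and from 3.56 to 4.42 in resilient mice, and was 3.89, 4.11 and 3.62 in susceptible mice. The 3 differences from controls, -0.21 ± 0.13 in resilient B6, -0.29 ± 0.17 in susceptible B6 and -0.17 ± 0.15 in susceptible D2 mice, were not called. Myrf of resilient B6 mice spread from 3.38 to 4.69 log2 CPM, with 3 mice above and 5 below the whole control range of 4.07 to 4.33. Olig1 ran from 4.96 to 5.67 in resilient mice against 5.24 to 5.31 in controls, and the 3 susceptible mice, at 5.34, 5.69 and 5.45, lay above all controls without a call (0.22 ± 0.13, limma, adjusted p = 0.182). Nkx6-2 differed by -0.37 ± 0.16 in susceptible B6 mice (limma, adjusted p = 0.0694) and Zfp488 by -0.26 ± 0.10 in resilient B6 mice (limma, adjusted p = 0.0995). No member was called for the interaction of strain with susceptibility in the vHPC (limma), beside 0.782% of all genes, and 0 members were at an unadjusted p under 0.05, beside 18.4% of all genes. The ratio of Sox10 to Olig1 within a mouse was lower in resilient B6 mice than in controls (-0.20, exact permutation test, adjusted p = 0.0396). In susceptible B6 mice the ratios of Sox10 to Olig1, Olig2, Myrf, Nkx2-2 and Sox8 did not overlap with those of controls (-0.50, -0.63, -0.33, -1.24 and -0.39). They lay at the smallest p that 3 against 6 mice allow (exact permutation test, p = 0.0119, adjusted p = 0.0654). Of all genes taken singly, 37.7% did not overlap between these groups, and ratios of Sox10 to genes outside the list were not computed. No library set held both control and defeated B6 mice here, and the ratios were not refitted with library set. For these ratios too, library set and CSDS cannot be told apart.

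Without a batch term, the estimates of Olig2 in defeated vHPC mice were opposite in direction to the medians of the myelin genes. With library set in the model Olig2 changed sign in resilient B6 mice, as given above, and no such fit is reported for the myelin genes. Library set and CSDS cannot be told apart for this contrast in B6 mice. Of the 18 myelin genes, 17 were lower in susceptible B6 (median -0.85), 7 in resilient B6 (median -0.34) and 3 in susceptible D2 mice (median -0.34), and none was higher. Mal, a proteolipid of compact myelin, differed by -1.298 ± 0.13 in susceptible B6 mice (limma, adjusted p = 3.72e-08). The counts of the other lists in susceptible B6 mice stand beside the 40.6% of all genes called there, and nothing is read from them about the lists. Among 15 other differentiation regulators 4 were higher and 4 lower, with Sox9 higher by 0.56 ± 0.15 (limma, adjusted p = 0.00617). Of 13 inhibitors of maturation 5 were higher and 2 lower, with Hes5, a Notch target, higher by 0.40 ± 0.09 (limma, adjusted p = 0.000985) and Id4 lower at -0.53 ± 0.07 (limma, adjusted p = 3.87e-06). Of 13 OPC and committed precursor genes, 1 was higher (Pcdh15, 0.33 ± 0.09, limma, adjusted p = 0.00396) and 3 lower, with Enpp6 at -0.70 ± 0.17 (limma, adjusted p = 0.00247).

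Other cell types moved in the same mice. Of 8 neuron genes 6 were higher in susceptible B6 mice (median 0.24), of 5 endothelial genes 4 were lower (median -0.54), and the choroid plexus genes, 1 of 3 called, had a median of -2.54. Choroid plexus genes summed to 19.68 to 236.8 CPM in controls and to 13.41 to 23.32 CPM in susceptible mice. Neuron genes summed to 3483 to 3864 CPM in controls and to 4086 to 4351 CPM in susceptible mice. The part of this in the results for Olig2 and Nkx2-2 was not tested.

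In the BNST, no member was called in any comparison of defeated mice, nor for the interaction. Of all genes 0% were called in each of them, except for susceptible against resilient B6 mice (0.00571%). DESeq2 called 0 members as well. By the edgeR quasi-likelihood test 2 members, Olig2 (0.50 ± 0.25) and Zfp488 (0.61 ± 0.29), were at an unadjusted p under 0.05 in susceptible against resilient B6 mice, as were 7.55% of all genes, and 1 member, Olig2, was so for the interaction, as were 11.4% of all genes. In the other comparisons 0 members were, beside 1.87% of all genes in resilient and 6.37% in susceptible B6 mice against controls, 5.44% in resilient and 6.03% in susceptible D2 mice against controls, and 1.31% between susceptible and resilient D2 mice.

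Olig2 of the BNST was at 5.45, 4.95, 5.87, 5.58 and 6.20 log2 CPM in B6 controls, at 5.48, 5.55, 5.24, 5.88 and 5.72 in resilient and at 6.05, 5.56, 5.73, 6.42 and 6.48 in susceptible B6 mice, and these ranges overlapped. In D2 mice it was at 5.37, 5.41, 6.15, 6.33 and 6.19 in controls, at 5.56, 5.72 and 5.16 in resilient and at 4.72, 5.45, 5.68, 5.34 and 6.06 in susceptible mice. The estimates for susceptible mice were 0.42 ± 0.25 in B6 (edgeR, adjusted p = 0.823) and -0.43 ± 0.24 in D2 (edgeR, adjusted p = 0.893). The interaction was -0.86 ± 0.35 (edgeR, adjusted p = 0.311), and -0.96 without the D2 control that stood apart (adjusted p = 0.158).

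All 8 estimates for susceptible mice were above 0 in B6 (0.11 to 0.48, median 0.35) and below 0 in D2 mice (-0.67 to -0.16, median -0.42), where the medians of all genes were 0.01 and -0.04. The members vary together from mouse to mouse, as described below, and 8 such signs are not 8 observations. Single mice also set some of the signs. The estimate of Olig1 in B6 mice was -0.18 without susceptible replicate 3 and -0.03 without control replicate 1, and in D2 mice Sox8 was at 0.09 and Nkx2-2 at 0.20 without control replicate 4. The largest estimates over all mice were Nkx2-2 in B6 (0.48 ± 0.33) and Myrf in D2 mice (-0.67 ± 0.42). With 1 mouse left out, Myrf in D2 mice ran from -0.95, without the control that stood apart, to -0.28, without control replicate 4, and Nkx2-2 in B6 mice from 0.30, without control replicate 2, to 0.64, without susceptible replicate 2. Myrf was at 8.22, 7.08, 8.05, 8.39 and 7.86 log2 CPM in susceptible B6 and at 6.71, 6.54, 7.88, 7.81 and 8.01 in control B6 mice. The myelin genes had medians of 0.43 in susceptible B6 and -0.68 in susceptible D2 mice, with 0 of 18 called. In D2 mice the 5 thalamic neuron genes had a median of -1.57 with 0 called, and their part in these values was not tested.

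Sox8 was the only member whose groups did not overlap in the BNST. Susceptible D2 mice, at 6.45, 6.24, 6.53, 6.41 and 6.61 log2 CPM, lay below the 3 resilient D2 mice at 6.77, 6.95 and 6.76. The difference was -0.38 ± 0.31 (edgeR, adjusted p = 1), and 2.76% of all genes did not overlap between these small groups. Resilient D2 mice of the BNST shared no mouse ID prefix with susceptible or control D2 mice. Prefix and resilience therefore cannot be told apart in these mice.

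**Figure D5:**
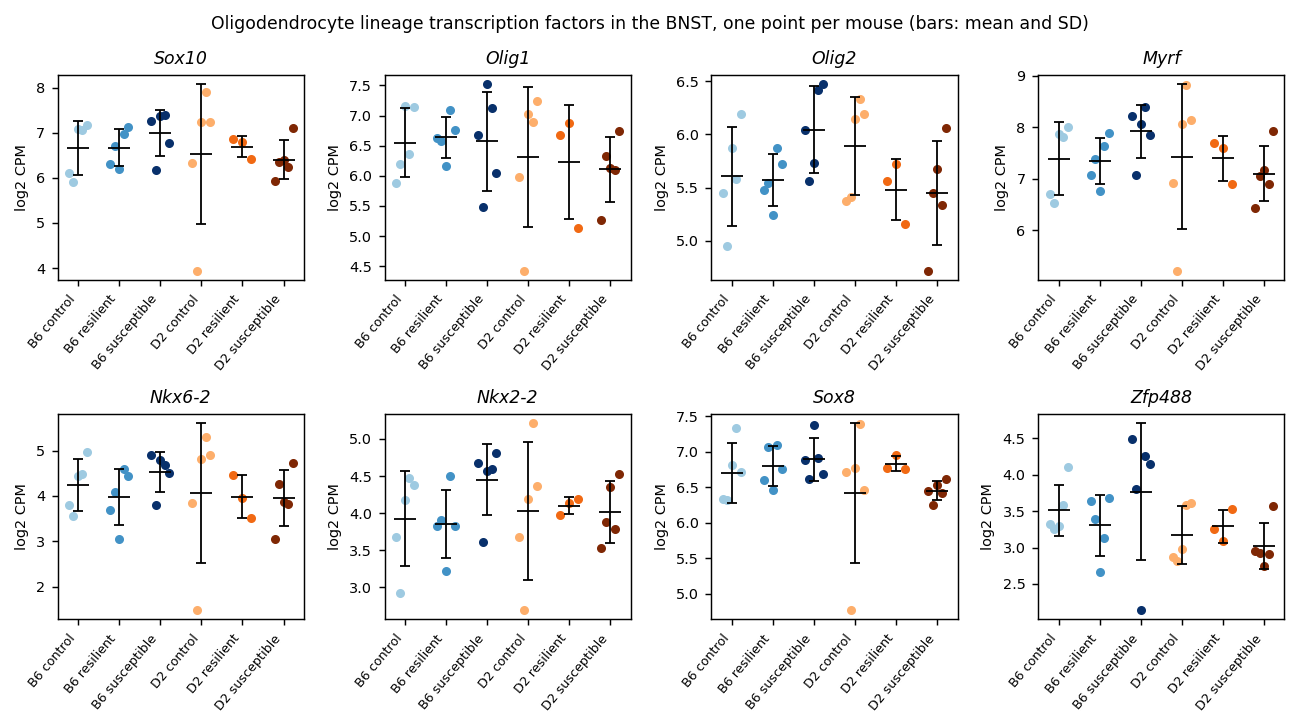
Level of each member in the BNST (y axis, log2 CPM) by strain and phenotype (x axis), 1 point per mouse, with bars for the mean and SD. The low point of the D2 controls is the same mouse for Sox10 (3.94), Myrf (5.22) and Nkx6-2 (1.48), and the groups overlap for every member except Sox8 of resilient and susceptible D2 mice.

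The members were then compared with Sox10 from mouse to mouse, after the mean of each strain and phenotype group had been taken away, within a region, and tested by 100000 permutations within groups (two-sided, adjusted over 7 members and 3 regions). In the BNST (n = 28) Myrf followed Sox10 most closely, with r = 0.98 (permutation test, p = 1e-05, the smallest these draws can give, adjusted p = 4.2e-05) and rho = 0.985 (permutation p = 1e-05, adjusted p = 7e-05), and r = 0.974 without the 2 mice farthest from the median of Sox10. In the vHPC (n = 28) the r of Myrf was 0.796 (permutation p = 7e-05, adjusted p = 0.000147), its rho 0.726 (permutation p = 0.00034, adjusted p = 0.000714), and r was 0.697 without the 2 farthest mice. In the mPFC (n = 32) these were r = 0.703 (permutation p = 7e-05, adjusted p = 0.000147), rho = 0.721 (permutation p = 7e-05, adjusted p = 0.000294) and r = 0.666.

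Sox8 was related to Sox10 in each region as well, with r = 0.625 in the mPFC (permutation p = 0.00046, adjusted p = 0.000805, rho = 0.551, permutation p = 0.00243), 0.881 in the BNST (permutation p = 0.0001, adjusted p = 0.000191, rho = 0.734, permutation p = 0.00034) and 0.796 in the vHPC (permutation p = 1e-05, adjusted p = 4.2e-05, rho = 0.805, permutation p = 2e-05). Without the 2 farthest mice the r of Sox8 was 0.508, 0.657 and 0.742. Olig2 was less closely related, with r = 0.439 in the mPFC (permutation p = 0.0259, adjusted p = 0.0302, rho = 0.403, permutation p = 0.0372), 0.686 in the BNST (permutation p = 7e-05, adjusted p = 0.000147, rho = 0.779, permutation p = 0.0001) and 0.538 in the vHPC (permutation p = 0.00991, adjusted p = 0.0149, rho = 0.48, permutation p = 0.0226). Without the 2 farthest mice these were 0.44, 0.75 and 0.445. Within a group, then, mice with more Sox10 also had more Olig2 in the vHPC, although between the strains of that region the 2 genes differed in opposite directions.

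Of the 21 relations to Sox10, 19 passed an adjusted p of 0.05 (permutation test, n = 28 or 32). Genes outside the list were not put to this test, so the share of all genes that would pass is not known. The exceptions were Nkx2-2 in the mPFC (r = 0.22, permutation p = 0.322, rho = 0.331, permutation p = 0.105, r = 0.265 without the 2 farthest mice) and Zfp488 in the BNST (r = 0.289, permutation p = 0.133, rho = 0.442, permutation p = 0.0358, r = 0.21 without the 2 farthest mice). By rank correlation Zfp488 in the BNST passed (adjusted p = 0.046), while Olig1 in the mPFC (rho = 0.371, permutation test, adjusted p = 0.0654) and Nkx2-2 in the vHPC (rho = 0.419, permutation test, adjusted p = 0.0622) did not. Without the 2 farthest mice, Nkx2-2 (r = 0.323, permutation test, adjusted p = 0.181) and Zfp488 (r = 0.432, permutation test, adjusted p = 0.0645) in the vHPC did not pass either. Over all 28 pairs of members the r within groups was above 0 for 27 in the mPFC (median 0.356), for 28 in the BNST (median 0.788) and for 28 in the vHPC (median 0.585). The points share a library, so that whatever scales many genes of a library moves both values. No share over all gene pairs was computed for comparison.

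As a description, without a test, the genes in all 3 tables were ranked by their mean r to Sox10 over the 3 regions, within groups, among 15987 genes. The first was Pacs2 (mean r = 0.841), followed by Myrf at rank 3 (0.826), Itgb4 at rank 4 (0.804), Gab1 at rank 5 (0.797), Sirt2, a deacetylase abundant in OLGs, at rank 6 (0.789), Tns3 at rank 7 (0.78), Sox8 at rank 8 (0.768), Hepacam at rank 9 (0.767) and Fa2h, which makes the hydroxylated fatty acids of myelin lipids, at rank 10 (0.767). Nkx6-2 was at rank 31, Olig1 at rank 35, Olig2 at rank 296, Nkx2-2 at rank 335 and Zfp488 at rank 825. Of the 18 myelin genes 7 were among the first 100, led by Fa2h, Cnp and Mag, and their median rank was 475. Some myelin genes had a high r to Sox10 in the mPFC and a lower one in the BNST, such as Ugt8a (r = 0.676 and 0.127), whereas Mag followed it in both (r = 0.692 and 0.954).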

How the data were processed

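RNA-seq libraries of 3 brain regions from 88 samples were analysed. The authors removed duplicate reads, aligned the rest to GRCm38 with STAR and counted exons with HTSeq. For the BNST the deposited values are raw counts. For the mPFC and vHPC the authors deposited log2 CPM values, filtered and transformed by voom. These had been adjusted by ComBat for library batch (vHPC also for sequencing batch). Group differences can thereby have been reduced or widened, also where the groups lay in different batches.

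Here BNST genes with at least 1 CPM in 6 libraries were kept, scaled by TMM and tested with edgeR 4.0.16 (quasi-likelihood), with a prior count of 0.5 for log2 CPM. Log2 values were tested with limma 3.58.1 (robust). Fits held all groups of a region and all genes, with Benjamini-Hochberg adjustment over the whole table and a threshold of 0.05. SciPy 1.17.1 gave permutation tests. Scripts were tested on simulated data. DESeq2 1.42.0, other scalings and filters, batch terms and leaving out each mouse were alternatives. Library and sequencing sets came from the study's sample sheet.

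All 8 members are named in every comparison, other lists by counts and at most 2 called genes in each direction. For Sox10 the 10 genes with the highest mean r were sought, of which 1 is not reported here. Members and lists were chosen with earlier results of these data known. Symbols came from GENCODE M21 on GRCm38, and promoter windows from RefSeq.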

Additional observations from a re-analysis of the deposited data

Results flagged for a closer look

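In a group of 4 to 10 mice a single value was set apart when its gap to the nearest other mouse was large against the range of the group (Dixon's test at the 95% level). This marks about 1 group in 20 by chance, and 5 of 112 groups were marked here. In the mPFC, Sox10 of susceptible B6 replicate 5 was the lowest of its group at 2.86 log2 CPM, with the nearest mouse at 3.14. Also in the mPFC, Olig1 of control B6 replicate 5 was the highest at 4.04 log2 CPM, with the nearest at 3.62. In the BNST, Nkx2-2 of susceptible B6 replicate 2 was the lowest at 3.61 log2 CPM, with the nearest at 4.57. Zfp488 of susceptible B6 replicate 3 in the BNST was the lowest at 2.141 log2 CPM, with the nearest at 3.81. Zfp488 of susceptible D2 replicate 5 in the BNST was the highest at 3.57 log2 CPM, with the nearest at 2.96.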

How the results depend on the processing

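No paired analysis was made within a region because replicate numbers were given in accession order and pair no mice. The 7 mice sampled in both the mPFC and the vHPC were not compared as pairs, because no test was made between regions. The number of members called was recomputed under each alternative. In the BNST it stayed at 0 in all 8 comparisons under every alternative run. In the mPFC it rose from 0 to 1 (Sox10) in susceptible against control B6 mice with quantile normalization and with a filter at a mean log2 CPM of 1, and was 0 to 1 with 1 mouse left out (1 without B6 control replicate 2 or 6 or susceptible replicate 4). Between control strains it fell from 3 to 1 with that filter, which left 5 members in the test, and was 3 with any mouse left out. In the vHPC, library preparation set as a term gave 0 in each comparison, also between the strains, and gave Olig2 of resilient B6 mice the opposite sign (-0.15). In resilient against control B6 mice (1 in the report) the mouse ID prefix, the sequencing set and a fit to the groups compared gave 0, and leaving out 1 mouse 0 to 1. In susceptible against control B6 mice (2) the filter gave 1, and leaving out 1 mouse 1 to 2. In susceptible against resilient B6 mice (1) the filter, the sequencing set and the fit to the groups compared gave 0, and leaving out 1 mouse 0 to 2. In susceptible against control D2 mice (1) quantile normalization, the prefix and the sequencing set gave 0, and leaving out 1 mouse 0 to 1. Between control strains (6), leaving out 1 mouse gave 4 to 6. The cause of these changes was not tested. The prefix could not be fitted as a term for strain differences. The mPFC and vHPC tables hold no counts, which limits what can be said of Nkx2-2 near 1 CPM and of the low Nkx6-2 and Zfp488 in the mPFC.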
